A study of Mus musculus with 4 samples.

Results

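Brain endothelial cells line every vessel of the brain, and their nuclei were picked from the single-nucleus RNA sequencing (snRNA-seq) libraries by counts of unique molecular identifiers (UMIs, one per captured RNA molecule). A nucleus was taken when Flt1, Cldn5, Adgrl4, Mecom and Slco1a4, 5 genes that mark this lining, together held at least 5 UMIs. It was left out when it held more than 1 UMI of the mural genes Atp13a5, Abcc9, Notch3 and Pdgfrb, more than 1 of the neuronal genes Rbfox3, Slc17a7, Slc17a6, Gad1 and Gad2, or more than 1 of Mog, Aqp4 and Csf1r, which mark oligodendrocytes, astrocytes and microglia. The rule found 1742 endothelial nuclei among 78728 nuclei, or 2.21%. Levels of the marker and maximum genes in these nuclei were fixed by the rule and are given only as a description.

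The study asked how VEGF-C acts on the brain after delivery into the cerebrospinal fluid. Male C57BL/6J mice received an adeno-associated virus (AAV9) into the cisterna magna at 4 wk of age, and brain nuclei were prepared at 8 wk of age. AAV-VEGF-C encoded full-length mouse VEGF-C. AAV-CTRL was not an empty virus, since it encoded a soluble fragment of the receptor VEGFR-3 that does not bind VEGF-C, so both groups carried a virus and a secreted protein. Each AAV group pooled the brains of 5 mice, and the same pooled mice gave a library labelled cortex and a library labelled striatum. There were thus 4 libraries and 1 library per group, the nuclei of a library are not replicates, and no test between groups was possible. Intervals in brackets are exact 95% intervals and cover counting error only, without the spread between mice. Where 4 values stand together, the 2 libraries labelled cortex come first, and within each region label AAV-CTRL comes before AAV-VEGF-C.

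The capillary wall of the brain is sealed by tight junctions, carries few caveolae and moves glucose, amino acids, lipids and drugs through dedicated transporters, which together form the blood-brain barrier. VEGF-C binds VEGFR-3, encoded by Flt4 and best known from lymphatic vessels, and in its processed form also VEGFR-2, encoded by Kdr, the main growth receptor of blood vessels. Neuropilins, encoded by Nrp1 and Nrp2, assist both receptors. Along the vessel tree, arterial, capillary and venous endothelium use different genes, and leukocytes leave the blood mainly through venous endothelium.

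Promoters of the VEGF-C receptors, and of 3 genes among the 20 whose level most exceeded that of all other nuclei, are shown to set regulatory sequence beside the values that follow. Each is the 250 bases before the gene's start in RefSeq on GRCm38.p6, written along the gene's strand. Capitals mark AGGAAG, the core that ETS factors bind, or CTTCCT, the same core on the other strand. Kdr is chr5:75978456-75978705 on the minus strand, Flt4 is chr11:49609429-49609678 on the plus strand, Ly6c1 is chr15:75048664-75048913 on the minus strand, Abcb1a is chr5:8566841-8567090 on the plus strand and Emcn is chr3:137340828-137341077 on the plus strand.
Kdr: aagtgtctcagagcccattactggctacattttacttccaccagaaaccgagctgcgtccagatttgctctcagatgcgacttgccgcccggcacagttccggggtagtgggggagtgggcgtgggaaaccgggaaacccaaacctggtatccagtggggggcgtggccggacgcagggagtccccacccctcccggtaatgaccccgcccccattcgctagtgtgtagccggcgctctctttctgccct
Flt4: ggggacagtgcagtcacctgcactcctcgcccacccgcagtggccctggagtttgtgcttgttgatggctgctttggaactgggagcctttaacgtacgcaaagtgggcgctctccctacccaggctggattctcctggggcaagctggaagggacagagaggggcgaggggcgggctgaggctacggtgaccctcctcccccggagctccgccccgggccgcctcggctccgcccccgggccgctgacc
Ly6c1: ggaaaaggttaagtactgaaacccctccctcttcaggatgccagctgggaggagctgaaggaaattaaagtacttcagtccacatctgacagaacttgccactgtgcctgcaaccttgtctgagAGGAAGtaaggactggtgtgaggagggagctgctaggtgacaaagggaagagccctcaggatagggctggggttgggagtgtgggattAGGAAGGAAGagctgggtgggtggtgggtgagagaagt
Abcb1a: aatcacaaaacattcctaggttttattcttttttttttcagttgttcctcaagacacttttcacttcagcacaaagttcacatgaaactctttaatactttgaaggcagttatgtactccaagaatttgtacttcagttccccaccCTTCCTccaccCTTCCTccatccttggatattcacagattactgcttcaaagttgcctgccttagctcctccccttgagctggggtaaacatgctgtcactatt
Emcn: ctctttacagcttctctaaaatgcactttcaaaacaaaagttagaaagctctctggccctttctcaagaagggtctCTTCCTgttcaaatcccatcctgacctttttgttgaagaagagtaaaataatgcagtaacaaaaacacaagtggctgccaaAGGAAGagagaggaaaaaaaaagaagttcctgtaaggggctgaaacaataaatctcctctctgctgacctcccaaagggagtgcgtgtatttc

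The Kdr and Flt4 windows held no copy of this core, which says only that these letters are not in the 250 bases shown. Ly6c1, a surface protein of brain endothelium, held 3 copies, a pair of them overlapping. Abcb1a, the drug efflux pump P-glycoprotein, and Emcn, a sialomucin of the luminal surface, held 2 copies each. Ly6c1, Abcb1a and Emcn were shown as genes with 2 or more copies among the leading 20, and Eng, which also held 2 but had a lower ratio to other nuclei than Abcb1a and Emcn, was left out. Of the 20 genes, 17 had a promoter sequence. Taking for each gene the promoter with the most copies, 10 held at least 1 in the 250 bases. Over all 32851 promoters in windows of 250 bases before and 50 after the start, 35.4% held the ETS core, 10.7% held AACAAT, a SOX core, and 5.20% held TGACTCA, the AP-1 site, each on either strand. These shares count single promoters in longer windows, so the 10 of 17 genes cannot be set against them. A comparison with the 100 leading genes is void, because 33 of them had no promoter sequence and at least 80% were needed. RefSeq starts can differ from the gene spans in the count files. The Abcb1a window lies upstream of the gene's span, chr5:8660077-8748575, and does not adjoin it. The Flt4 window lies inside the span of its gene, and the Ly6c1 window overlaps the span of its gene.

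The region label did not match the neuronal genes in the libraries. In all nuclei together, Ppp1r1b, a protein of striatal projection neurons, stood at 62.6, 74.8, 18.1 and 18.1 UMIs per 1000000 UMIs of the nuclei summed (CPM), so it was lower in both libraries labelled striatum. Drd1, Drd2 and Rgs9, further genes of striatal neurons, were also lower in both of those libraries, with Rgs9 at 105, 131, 48.0 and 46.6 CPM. Slc17a7, the glutamate transporter of cortical neurons, was lower there too, at 415, 453, 56.8 and 41.0 CPM. Tcf7l2, a factor of thalamic neurons, stood at 44.9, 42.6, 297 and 333 CPM, and Oxt, the hypothalamic hormone oxytocin, at 0.317, 3.38, 126 and 83.2 CPM. The library labels are kept as given, and values for the region labels compare these libraries. Vegfc in all nuclei outside the endothelial set lay between 11.5 and 12.3 CPM in every library, so it did not separate the AAV labels. Transcripts of the virus and of the mouse gene cannot be told apart by symbol.

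The libraries held 17168, 20370, 23724 and 17466 nuclei with 63165470, 78332657, 77253372 and 67773329 UMIs. The endothelial set held 313, 367, 646 and 416 of these nuclei, with 536609, 620544, 1180135 and 838071 UMIs. Their median depth was 1516, 1430, 1543.5 and 1830 UMIs per nucleus, below the median of all nuclei in each library (2622.5, 2873, 2272 and 2647). The maxima left out 3045 of the 4787 nuclei that reached the marker minimum. Those left out had medians of 2712, 2933.5, 3054.5 and 3397 UMIs, so the rule itself lowered the median of the set. Over all nuclei 598 barcodes were shared between libraries, and no barcode was shared among endothelial nuclei. At 2.21% of all nuclei the set would hold few shared barcodes, so this does not set it apart.

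Endothelial nuclei made up 1.82% (1.63 to 2.03) and 1.80% (1.62 to 1.99) of the 2 libraries labelled cortex, and 2.72% (2.52 to 2.94) and 2.38% (2.16 to 2.62) of those labelled striatum. The share under AAV-VEGF-C over AAV-CTRL had a log2 ratio of -0.02 (-0.24 to 0.21) with the cortex label and -0.19 (-0.37 to -0.01) with the striatum label. The cortex interval thus covers equal shares, and the striatum interval ends just short of them. The striatum interval covers equal shares with a marker minimum of 8 (-0.29 to 0.11), with an other-cell maximum of 0 (-0.57 to 0.06) and without called doublets (-0.34 to 0.03). It also covers them after thinning every nucleus to 1000 UMIs (-0.22 to 0.10) and without 88 nuclei (-0.30 to 0.07). Those 88 nuclei held at least 10 UMIs of Ttr or Scgb1c1, or fewer than 2 UMIs of 25 endothelial genes outside the rule. The last condition was met by 70 of them. With the striatum label over the cortex label, the share had a log2 ratio of 0.58 (0.38 to 0.78) under AAV-CTRL and 0.40 (0.20 to 0.61) under AAV-VEGF-C. The maxima on other cell types weigh on the region values. The marker minimum alone was reached by 5.69%, 5.61%, 6.93% and 5.86% of nuclei, and the neuron maximum was passed by 540, 615, 667 and 394 of those. Without the neuron maximum, the region ratios were 0.19 under AAV-CTRL and 0.02 under AAV-VEGF-C.

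At the threshold, 113 endothelial nuclei held exactly 5 marker UMIs, and 130 nuclei within the maxima held 4. The median UMI sum of 25 endothelial genes that the rule did not use was 4, 5, 4 and 5 in the libraries for nuclei at 5 marker UMIs and 3, 6, 2 and 5 for nuclei at 4. The median marker sum of all endothelial nuclei was 13, 13, 13 and 17, so most of them lay well above the threshold.

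By the rule, the marker genes were high, with Flt1, the receptor VEGFR-1, at 3390, 3173, 3051 and 3501 CPM and Cldn5, the barrier claudin, at 1713, 1792, 1441 and 1808 CPM. The label was checked against those 25 genes, among them the adhesion proteins Pecam1 and Cdh5, the ETS factor Erg, the receptors Tek, Tie1 and Kdr, and the surface proteins Emcn, Eng and Ly6c1. All 25 were at least 6.72-fold higher in endothelial nuclei than in all other nuclei, from Mmrn2 at 6.72-fold to Robo4 at 25.4-fold. Pecam1 stood at 343, 301, 393 and 416 CPM against 19.8, 17.0, 22.6 and 21.3 CPM in the other nuclei. Their summed UMIs had a median of 14, 12, 12 and 16 per endothelial nucleus against 0 per other nucleus in every library. The data therefore match the endothelial label for most nuclei. They do not for all of them, since 7, 2, 33 and 2 endothelial nuclei held 0 UMIs of the 25 genes. Because these genes were read in nuclei chosen by their marker counts, the values are a description.

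**Figure D1:**
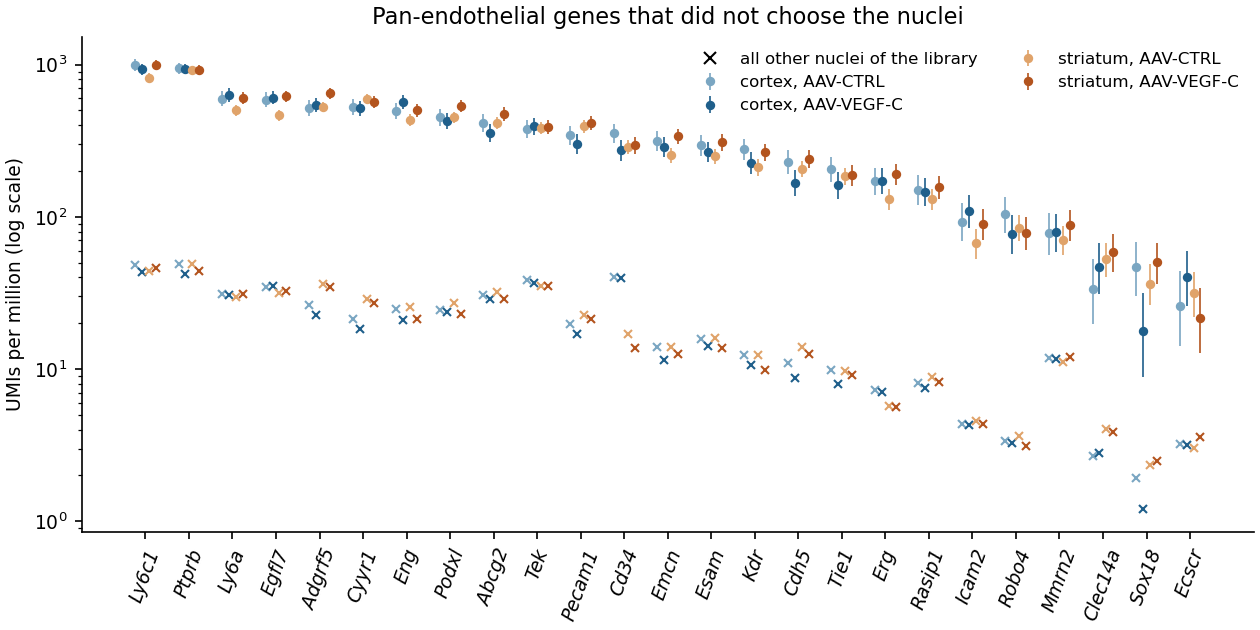
Level of the 25 endothelial genes that the rule did not use, in CPM on a log axis, 1 point per library with its exact 95% Poisson interval. Crosses give all other nuclei of the same library. Every gene lies above its crosses in all 4 libraries, with Mmrn2 the least separated at 6.72-fold and Robo4 the most at 25.4-fold.

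The library labelled striatum AAV-CTRL stood apart from the other 3. It held 33 of the 44 endothelial nuclei without a UMI of the 25 genes, and 61 of its endothelial nuclei (9.44%) were called doublets, against 3.51%, 3.27% and 3.37% in the others. Over all nuclei of the 4 libraries, 4.44%, 5.99%, 7.64% and 4.09% were called doublets, so this library was the highest there too. Scgb1c1, a secretoglobin, held 0, 0, 488 and 1 UMIs in endothelial nuclei, and Bpifb3, of the lipid-binding BPI fold family, held 0, 0, 296 and 0. Both are therefore signals of 1 library. Transthyretin (Ttr), the main product of the choroid plexus, held 550, 2653, 1591 and 850 UMIs, of which 88.0%, 94.8%, 85.4% and 80.4% lay in 6, 7, 10 and 5 nuclei with at least 10 UMIs of it.

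Transcripts of other cell types were also counted in endothelial nuclei. The 8 neuronal marker genes summed to 5065, 5002, 5459 and 4403 CPM, between 0.227 and 0.273 times the level in the other nuclei, with none of the 8 at 0. The 8 astrocyte genes summed to 2743, 3463, 2170 and 2213 CPM and the 8 microglia genes to 248, 259, 194 and 178 CPM, both between 0.613 and 1.32 times the other nuclei. The 6 genes of oligodendrocyte precursors summed to 604, 425, 653 and 501 CPM. The 8 pericyte genes were 4.85, 4.85, 4.02 and 4.67 times the other nuclei, led by Rgs5 at 785, 627, 929 and 1032 CPM. Smooth muscle genes summed to 89.5, 102, 106 and 72.8 CPM, with Cnn1 and Myocd at 0 in the first library and Cnn1 at 0 in the second. The 7 fibroblast genes summed to 121, 106, 206 and 132 CPM, with none at 0. None of these 7 lists passed 1.5-fold the same way in both AAV comparisons. The 6 choroid plexus and ependyma genes, Ttr among them, summed to 1344, 4725, 1869 and 1219 CPM, and the 5 red blood cell genes to 8958, 2422, 896 and 5300 CPM, so both lists moved opposite ways in the 2 AAV comparisons.

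The 20 genes with the largest ratio of endothelial nuclei to all other nuclei, the marker genes aside, were Zfp366 (28.2-fold), 4930578C19Rik (27.4), Robo4 (25.4), Erg (25.3), Cyyr1 (23.5), Abcb1a (22.7), Nostrin and Emcn (22.6 each), Tnfsf10 (22.2), Gimap6 (22.1), Ctla2a (21.4), Kdr (21.2), Eng (21.1), Slc19a3 and She (21.0 each), Clic5, Xdh and Hmcn1 (20.7 each), Bpifb3 (20.6) and Ly6c1 (20.4). Their order follows the ratio to other nuclei and not the level of one gene against another. Several have known roles in the vessel wall. Erg keeps endothelial identity, Robo4 and Nostrin restrain vessel leak and nitric oxide release, Eng is a co-receptor for BMP9, Slc19a3 carries thiamine and Tnfsf10 encodes the death ligand TRAIL. With Bpifb3 set aside, each was present in all 4 libraries, as with Ly6c1 at 997, 933, 823 and 1002 CPM.

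Among the VEGF-C receptors, Kdr (chr5:75932827-75978458, minus strand, mm10) held 149, 141, 249 and 222 UMIs. This is 278 (235 to 326), 227 (191 to 268), 211 (186 to 239) and 265 (231 to 302) CPM, against 9.88 to 12.3 CPM in the other nuclei. Kdr thus stood far above the other nuclei in every library. At least 1 Kdr UMI was found in 32.3%, 27.0%, 27.2% and 37.7% of endothelial nuclei, and in 2.29% to 2.83% of the other, deeper nuclei. For AAV-VEGF-C over AAV-CTRL, Kdr had a log2 ratio of -0.29 (-0.63 to 0.05) with the cortex label and 0.33 (0.06 to 0.60) with the striatum label. Both lie inside 1.5-fold (0.58 on the log2 scale) and their directions are opposite. Over the alternatives tried, the Kdr ratio ranged from -0.35 to -0.20 with the cortex label and from 0.08 to 0.56 with the striatum label.

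Flt4 (chr11:49609263-49652739, plus strand, mm10) held 39, 29, 59 and 53 UMIs, or 72.7, 46.7, 49.99 and 63.2 CPM. It was found in 10.9%, 7.63%, 7.89% and 11.3% of endothelial nuclei, against 0.908% to 1.01% of the other nuclei. Flt4 was therefore detected in endothelial nuclei above the other nuclei in all 4 libraries, but with fewer than 200 UMIs in all. Its AAV-VEGF-C over AAV-CTRL log2 ratio was -0.64 (-1.38 to 0.09) with the cortex label and 0.34 (-0.22 to 0.90) with the striatum label. Both intervals reach 0, so a difference was not detectable at this depth, and they still allow one past 1.5-fold.

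Of the co-receptors, Nrp1 stood at 205, 182, 211 and 234 CPM, with AAV log2 ratios of -0.17 and 0.15. Nrp2, the partner of VEGFR-3, stood at 91.3, 75.7, 94.1 and 66.8 CPM against 65.9, 63.7, 104 and 99.9 CPM in the other nuclei. It was thus above them in both libraries labelled cortex and below them in both labelled striatum. In cortex AAV-VEGF-C and striatum AAV-CTRL this gap lay within counting error. Its AAV log2 ratios were -0.27 (-0.88 to 0.34) and -0.49 (-0.98 to -0.02). Neither co-receptor passed 1.5-fold in either pair.

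The ligand Vegfc itself held 17, 17, 58 and 45 UMIs, or 31.7, 27.4, 49.1 and 53.7 CPM, above the other nuclei in each library. Its AAV log2 ratio was -0.21 (-1.27 to 0.85) with the cortex label and 0.13 (-0.47 to 0.71) with the striatum label. Endothelial Vegfc thus showed no difference between the AAV labels beyond counting error, within intervals that allow more than 1.5-fold. Vegfb, which binds VEGFR-1, held 10, 32, 45 and 31 UMIs, with log2 ratios of 1.47 (0.41 to 2.66) and -0.04 (-0.75 to 0.65). The processing factors of VEGF-C were scarce, with Ccbe1 at 6, 14, 16 and 3 UMIs and the protease Adamts3 at 9, 2, 7 and 1 UMIs.

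**Figure D2:**
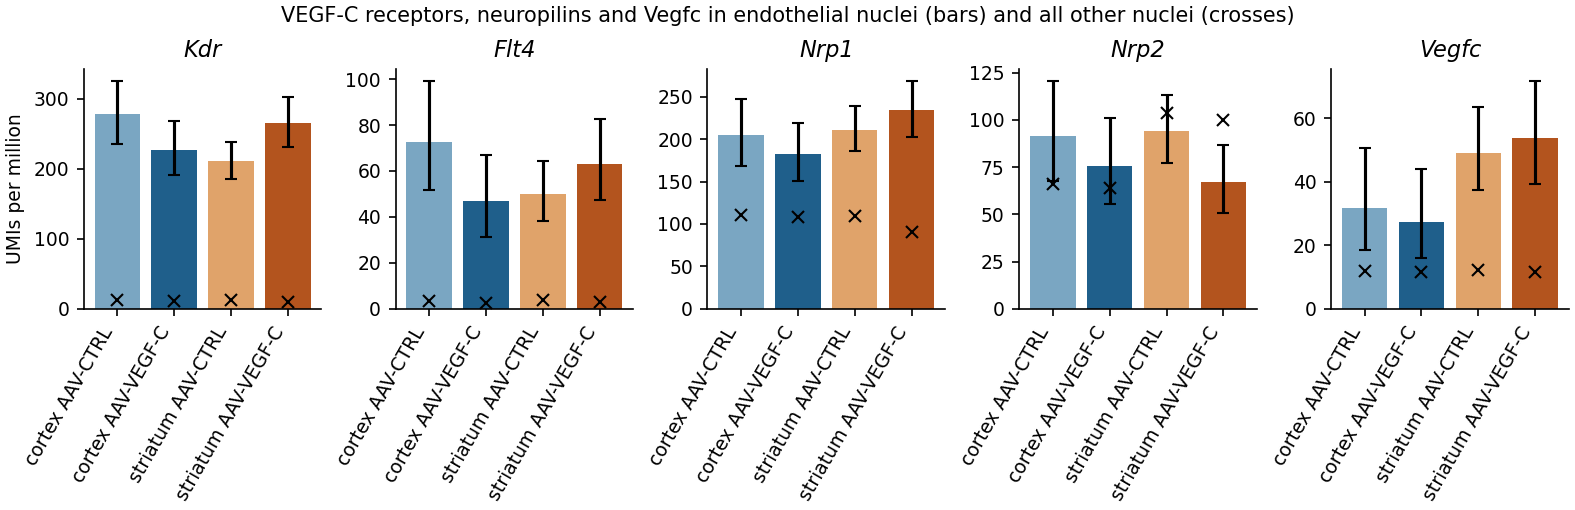
Level of the receptors Kdr and Flt4, the co-receptors Nrp1 and Nrp2 and the ligand Vegfc in endothelial nuclei, in CPM, as bars from 0 with exact 95% Poisson intervals, 1 bar per library. Crosses give all other nuclei. Kdr stands at 211 to 278 CPM against at most 12.3 in other nuclei, while Nrp2 lies above its crosses in the libraries labelled cortex and below them in those labelled striatum. The Nrp2 intervals of cortex AAV-VEGF-C and striatum AAV-CTRL reach their crosses.

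Genes downstream of VEGFR-2, among them kinases of the MAPK and protein kinase C families, were followed as a list of 28 genes, 21 of which held the 200 UMIs needed. With the cortex label, 0 of the 21 passed 1.5-fold in either direction and the median log2 ratio was -0.02. With the striatum label 0 were higher and 1 was lower, Prkca, at 184, 151, 127 and 72.8 CPM and a ratio of -0.80 (-1.26 to -0.37). Prkca was lower in endothelial than in other nuclei (0.370 times). Of 9 listed neurotrophin and neurotrophin receptor genes, 3 held enough UMIs, with AAV medians of -0.06 and -0.17 and 0 past the fold. The BDNF receptor Ntrk2 (0.425 times), Ntrk3 (0.281 times) and the sorting receptor Sort1 (0.831 times) were below the other nuclei. The study's BDNF result in endothelial cells came from pathway enrichment of upregulated genes, a different measure that was not run here. Bdnf held 13, 27, 28 and 10 UMIs, or 24.2, 43.5, 23.7 and 11.9 CPM, at or below the 48.3, 43.5, 27.3 and 27.6 CPM of the other nuclei.

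Across the whole profile, 3981 genes held at least 200 UMIs over the 4 endothelial sets, and 941 of these were at least 2-fold above the other nuclei. Only these 3981 genes were compared gene by gene. A gene is called here when its AAV-VEGF-C over AAV-CTRL ratio passes 1.5-fold. With the cortex label 114 genes were higher (2.86%) and 136 lower (3.42%), and with the striatum label 90 were higher (2.26%) and 209 lower (5.25%). In both labels 13 genes were higher (0.327%) and 16 lower (0.402%). The 13 are 11.4% of the cortex list and 14.4% of the striatum list, and the 16 are 11.8% and 7.66%. A further 7 of the genes higher and 4 of those lower with the cortex label were past the fold the opposite way with the striatum label. Of these calls, 2 of the 13 and 0 of the 16 remained when the neuron maximum was dropped, which widened the set to 3133 nuclei. The 2 region labels come from the same pooled mice, so they are no independent repeats of the injection.

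Of the 13 genes higher in both, 7 were at least 2-fold above other nuclei in endothelial nuclei. They were the ribosomal protein genes Rpl35, Rpl38 and Rps28, the respiratory chain gene Uqcr10, the proteasome assembly factor Pomp, the membrane protein gene Tmem256 and Ccdc85b. Rpl38 (chr11:114668524-114672331, plus strand, mm10) stood at 796, 1267, 697 and 1157 CPM, so it was higher in both AAV-VEGF-C libraries. Its log2 ratios were 0.67 (0.50 to 0.84) and 0.73 (0.60 to 0.87), and those in the other nuclei were 0.48 and 0.54. Rpl35 stood at 106, 189, 98.3 and 181 CPM, and its log2 ratios were 0.83 (0.36 to 1.31) and 0.88 (0.53 to 1.25). Rps28 stood at 417, 659, 368 and 613 CPM, and its log2 ratios were 0.66 and 0.74. These genes have many processed copies in the genome, so their counts are uncertain where reads could be split. Among the other 6 genes, which were under the 2-fold, the first 4 by rule were Cuedc2, Pdcd5, Hcfc1r1 and Cops9.

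The direction was shared by ribosomal protein genes as a group and by other nuclei. Of 74 such genes, 7 passed 1.5-fold higher with the cortex label and 15 with the striatum label, where all genes gave 2.86% and 2.26%, and 0 were lower in either. The medians were 0.25 and 0.42 in endothelial nuclei and 0.23 and 0.27 in the other nuclei. Ribosomal protein genes took 3.01%, 3.72%, 2.89% and 3.95% of endothelial UMIs. All 13 genes higher in both labels also had a ratio above 0 in the other nuclei of both labels, though 0 of them passed the fold there. What part transcripts of other cells have in the endothelial values was not tested.

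Pomp moved less with the other nuclei. It stood at 190, 285, 184 and 295 CPM, and its ratios were 0.59 (0.23 to 0.95) and 0.68 (0.41 to 0.95) against 0.09 and 0.15 in the other nuclei. Ccdc85b held 25, 68, 60 and 67 UMIs, and its log2 ratios were 1.23 (0.55 to 1.96) and 0.65 (0.13 to 1.18). Uqcr10 stood at 239, 387, 194 and 295 CPM, and Tmem256 at 106, 163, 59.3 and 97.8 CPM. For each of these 4 genes the AAV-VEGF-C library was higher under both region labels. Without the 88 nuclei described above, Pomp had ratios of 0.57 (0.20 to 0.94) and 0.61 (0.34 to 0.88), so it passed the fold with the striatum label only. Ccdc85b then had ratios of 1.23 and 0.56, so it passed with the cortex label only. Without called doublets, only Rpl35, Rpl38 and Rps28 of the 7 genes stayed called in both labels.

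Of the 16 genes lower in both, 3 were at least 2-fold above other nuclei. Vcam1 (chr3:116109949-116129688, minus strand, mm10), the adhesion molecule that holds leukocytes on venous endothelium, held 49, 37, 138 and 56 UMIs. This is 91.3, 59.6, 117 and 66.8 CPM, and 7.67%, 5.72%, 8.98% and 5.77% of endothelial nuclei held at least 1. Its log2 ratio was -0.61 (-1.27 to 0.03) with the cortex label and -0.81 (-1.28 to -0.35) with the striatum label, so only the second interval lies clear of 0. In other nuclei the Vcam1 ratios were -0.06 and -0.24. Dusp16, a phosphatase that acts on JNK and p38, stood at 98.8, 51.6, 75.4 and 45.3 CPM, and its log2 ratios were -0.94 (-1.62 to -0.28) and -0.73 (-1.32 to -0.17) against ratios no farther from 0 than -0.03 in the other nuclei. Otx2os1, a transcript antisense to Otx2, stood at 89.5, 48.3, 159 and 32.2 CPM, and its log2 ratios were -0.89 (-1.60 to -0.20) and -2.31 (-2.95 to -1.72). Otx2os1 moved among libraries in other nuclei too, from 8.84 to 61.4 CPM. Of its UMIs in endothelial nuclei, 92.5% lay in 88 of them. Those 88 held at least 10 UMIs of Ttr or Scgb1c1, or fewer than 2 UMIs of the 25 endothelial genes, as 70 of them did. Without these nuclei Otx2os1 held 1, 1, 15 and 5 UMIs, too few for a ratio, while Vcam1 had ratios of -0.79 (-1.50 to -0.11) and -0.79 (-1.27 to -0.32) and Dusp16 of -0.79 and -0.68. The genes called in both labels were then 9 higher and 15 lower, of which 8 and 10 were among the 13 and 16. Of the other 13 genes, the first by rule were Sgcd, Sntg1, Rgs7 and Mgat4c, all under the 2-fold and used widely by neurons or glia.

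**Figure D3:**
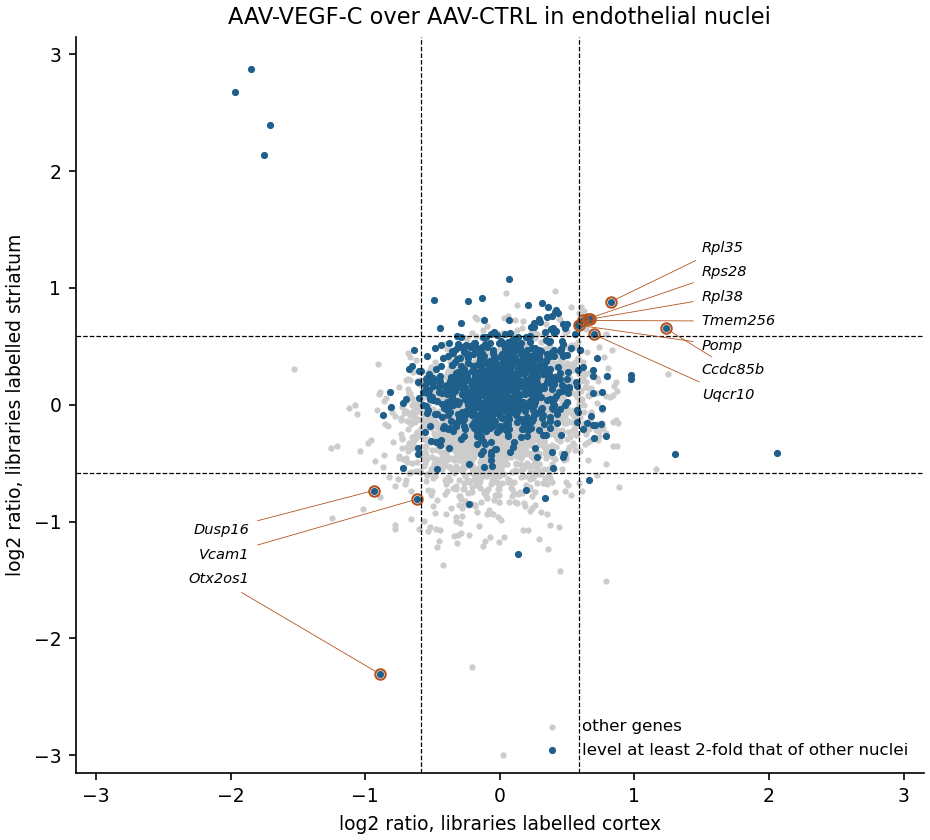
Log2 ratio of AAV-VEGF-C over AAV-CTRL in endothelial nuclei for genes with at least 200 UMIs, the cortex label on the horizontal axis and the striatum label on the vertical axis, 1 point per gene. Dashed lines mark 1.5-fold, points past 3 are drawn at that limit, and genes without a finite ratio are not drawn. Circled genes are the 10 called in both labels and at least 2-fold above other nuclei, with 7 at the upper right and 3 at the lower left.

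Genes with a known endothelial role were followed in 24 lists. Of 189 compared genes on them, 4 were higher and 5 lower with the cortex label, and 2 were higher and 7 lower with the striatum label. Over all 3981 genes the shares were 2.86%, 3.42%, 2.26% and 5.25%, so the lists were not set apart from other genes by these counts. The balance around 0 leaned one way in each pair. With the cortex label 64 were above 0 and 125 below, with a median of -0.08, and with the striatum label 116 were above and 73 below, with a median of 0.04. Over all compared genes the medians were -0.02 and -0.01. Of the 25 endothelial genes outside the rule, 22 held enough UMIs, and 0 passed the fold in any comparison. Their medians were -0.06 and 0.26 for the AAV labels. The 941 genes at least 2-fold above other nuclei took 25.3%, 25.4%, 23.3% and 26.8% of endothelial UMIs, lowest in striatum AAV-CTRL. Their median AAV ratio was -0.01 with the cortex label and 0.15 with the striatum label, where it was 0.07 without called doublets.

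Of the 24 barrier transporters listed, 23 held enough UMIs, and 0 were past the fold in either AAV comparison, with medians of -0.08 and 0.08. At the shares over all genes, few calls would be made in a list of this or a smaller size, so a count of 0 does not set one apart. Slc2a1, the glucose transporter GLUT1, stood at 885, 693, 839 and 889 CPM, so the cortex AAV-VEGF-C library was the low one. Its ratios were -0.35 (-0.54 to -0.16) and 0.08 (-0.06 to 0.22), and those in other nuclei were -0.32 and -0.03. Abcb1a stood at 626, 559, 641 and 646 CPM and Slco1c1, the thyroxine transporter, at 924, 875, 873 and 959 CPM. Slc6a6, the taurine transporter, stood at 1114, 849, 1116 and 1191 CPM, and its log2 ratios were -0.39 (-0.56 to -0.22) and 0.09 (-0.03 to 0.21). Mfsd2a, which carries omega-3 lipids and restrains transcytosis, stood at 194, 166, 110 and 155 CPM, and its log2 ratios were -0.22 (-0.63 to 0.18) and 0.49 (0.13 to 0.86).

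Of 18 junction genes 13 were compared, with 0 past the fold in either AAV comparison and medians of -0.03 and -0.05. Tight junction genes Ocln (166, 192, 215 and 214 CPM) and Tjp1 (770, 856, 717 and 827 CPM) had cortex ratios of 0.21 and 0.15. Cdh5, the cadherin of the adherens junction, stood at 229, 168, 207 and 241 CPM, and its log2 ratios were -0.45 (-0.84 to -0.06) and 0.22 (-0.05 to 0.50). Of 8 compared caveola genes, 1 was lower with the cortex label, Cav2 at 78.3, 51.6, 78.0 and 95.5 CPM (-0.60, -1.31 to 0.10), and 0 passed the fold with the striatum label, with medians of -0.02 and 0.11. Cav1 stood at 145, 168, 158 and 199 CPM.

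Signalling lists gave few calls, as did all genes. In the angiopoietin, TGFβ and BMP list, 14 of 20 were compared, and 1 was higher with the cortex label, Smad1, at 27, 50, 111 and 87 UMIs (0.68, -0.02 to 1.41). With the striatum label 0 were past the fold, and the medians were -0.04 and 0.17. Of 13 Wnt genes and 4 Notch genes compared, 0 passed the fold in either AAV comparison. Lef1, a Wnt effector of barrier endothelium, stood at 522, 575, 574 and 654 CPM. Among 19 transcription factors, Foxc1, needed for vessel development, was higher with the cortex label, at 26, 59, 94 and 78 UMIs and a ratio of 0.97 (0.28 to 1.70). Foxo3, a restrainer of growth, was lower with the striatum label, at 41, 41, 104 and 41 UMIs (-0.85, -1.41 to -0.31). Each of these calls belongs to 1 pair only.

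Id1, a BMP target, and Cxcl12, a chemokine of the vessel wall, went opposite ways in the 2 AAV comparisons. Id1 (chr2:152736251-152737410, plus strand, mm10) stood at 647, 462, 430 and 601 CPM, and its log2 ratios were -0.48 (-0.71 to -0.25) and 0.49 (0.30 to 0.67). Cxcl12 stood at 950, 817, 632 and 898 CPM, and its log2 ratios were -0.22 (-0.40 to -0.04) and 0.51 (0.36 to 0.66). For both genes the library labelled striatum AAV-CTRL was the lowest of the 4, and none of these ratios passed 1.5-fold. The difference between the region labels was not tested, for want of replicate libraries.

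Genes of leukocyte traffic and inflammation were sparse. Of 18 listed, 6 were compared, with 1 higher and 2 lower with the cortex label (Il1r1 against Vcam1 and Nfkb1) and 0 higher and 1 lower with the striatum label (Vcam1), and medians of -0.28 and 0.15. Il1r1, the interleukin-1 receptor, held 39, 73, 122 and 77 UMIs, and its log2 ratios were 0.69 (0.11 to 1.29) and -0.17 (-0.60 to 0.25). Its cortex ratio was 0.41 (-0.22 to 1.06) without the 88 nuclei described above. Selectins were near 0, with Sele at 0, 1, 1 and 0 UMIs and Selp at 1, 0, 1 and 0, and Il6 held 0 in each library, a count that allows up to 3. In the interferon and MHC list, 7 of 14 were compared, with 0 past the fold with the cortex label and 1, Bst2, higher with the striatum label (73 and 84 UMIs, 0.70, 0.23 to 1.17). In the glucocorticoid list, where 7 were compared, Mt1, a metallothionein, was higher (0.67, 0.47 to 0.86) and Zbtb16 lower (-0.61, -0.99 to -0.24) with the striatum label. The 7 immediate early genes compared had AAV medians of -0.30 and 0.03, with 0 past the fold.

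Other roles gave few calls. Of 11 basement membrane genes compared, 0 passed the fold in the AAV comparisons, with medians of -0.29 and -0.04. Of 6 vasoactive and clotting genes, 1 was higher with the cortex label, Vwf (von Willebrand factor), at 82.0, 139, 101 and 99.0 CPM (0.76, 0.22 to 1.32), and its ratio with the striatum label was -0.03. Of 9 axon guidance genes compared, 1 was lower in each label, Unc5b (-0.64) with the cortex label and Slit2 (-0.93) with the striatum label.

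Most genes of growing, fenestrated and lymphatic endothelium were sparse. Of 11 sprouting genes, 0 held 200 UMIs, with the tip cell gene Esm1 at 0, 3, 0 and 3 UMIs, Apln at 3, 5, 13 and 13 and Angpt2 at 7, 9, 24 and 23. The proliferation genes Mki67 (1, 0, 1 and 0 UMIs) and Top2a (0, 1, 1 and 3 UMIs) were also rare. Plvap, the diaphragm protein of fenestrated vessels, held 4, 4, 5 and 13 UMIs. The 1 gene of the 6 on the fenestrated list with at least 200 UMIs was Plpp1, a lipid phosphatase, at 44, 28, 81 and 59 UMIs. It was lower with the cortex label (-0.86, -1.60 to -0.15), with a striatum ratio of 0.04, and was 1.89 times the other nuclei. The lymphatic genes Lyve1 (2, 0, 0 and 0 UMIs), Mmrn1 (0, 0, 1 and 0) and Ccl21a (0 in each library) were at or near 0, while Prox1, which neurons also use, held 9, 8, 47 and 31. The 10 lymphatic genes summed to 270, 245, 328 and 228 CPM, near the other nuclei at 0.809 to 1.13 times. Their summed ratio was -0.14 (-0.48 to 0.20) with the cortex label and -0.52 (-0.78 to -0.27) with the striatum label. The library labelled striatum AAV-CTRL had the highest sum, and also the highest level of the integrin gene Itga9 (8, 21, 91 and 13 UMIs) for its depth. Nrp2 was lowest in the library labelled striatum AAV-VEGF-C.

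More genes passed the fold between region labels than between AAV labels. For striatum over cortex, 348 genes were higher (8.74%) and 242 lower (6.08%) under AAV-CTRL, and 264 were higher (6.63%) and 275 lower (6.91%) under AAV-VEGF-C. Under both labels 112 were higher (2.81%) and 149 lower (3.74%), which is 32.2% and 42.4% of the higher lists and 61.6% and 54.2% of the lower lists. Of the 112, 111 had the same direction in other nuclei under both AAV labels and 83 passed the fold there, and of the 149 these numbers were 148 and 108. Those genes include neuronal transcripts, such as Nrgn, a neuronal calmodulin-binding protein, with 785, 1021, 176 and 110 UMIs in endothelial nuclei, and Oxt with 1, 1, 172 and 84. The 8 oligodendrocyte genes summed to 1446, 1228, 3379 and 3003 CPM, with 7 of 8 higher under both AAV labels. Transcripts of neighbouring cells thus moved with the region label in endothelial nuclei, and their part in the counts of called genes was not tested.

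Among genes at least 2-fold above other nuclei, 6 were higher and 5 lower with the striatum label under both AAV labels. Of the 6, Scgb1c1 gives no usable ratio, since it held 1 UMI against 0 under AAV-VEGF-C and reached 200 UMIs only through the library labelled striatum AAV-CTRL. Acer2 (chr4:86874396-86934822, plus strand, mm10), an alkaline ceramidase, stood at 65.2, 56.4, 118 and 128 CPM, so both libraries labelled striatum were above both labelled cortex. Its log2 ratios were 0.85 (0.31 to 1.43) and 1.18 (0.62 to 1.77), and those of the other nuclei, where it stood at 6.10 to 9.95 CPM, were 0.63 and 0.49. Net1, an activator of RhoA, stood at 44.7, 58.0, 79.7 and 90.7 CPM, and its log2 ratios were 0.83 (0.17 to 1.54) and 0.64 (0.05 to 1.26) where the other nuclei had -0.29 and -0.26. Tanc1, a scaffold protein, stood at 147, 127, 225 and 255 CPM, and its log2 ratios were 0.61 and 1.00. The glycolytic gene Aldoc and the creatine synthesis gene Gatm were also higher in other nuclei. Without the 88 nuclei described above, Net1 had ratios of 0.89 (0.22 to 1.62) and 0.57 (-0.02 to 1.19), so it passed the fold under AAV-CTRL only.

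Pear1, a receptor of the EGF-repeat family on platelets and endothelium, stood at 96.9, 88.6, 49.99 and 58.5 CPM and was lower with the striatum label. Its ratios were -0.95 (-1.52 to -0.39) and -0.60 (-1.19 to -0.02), while in other nuclei it went the opposite way at 0.28 and 0.38. Net1 and Pear1 were the 2 of the 11 genes whose direction differed from that of the other nuclei. Over the alternatives tried, Net1 ranged from 0.35 to 1.69 under AAV-CTRL and from 0.13 to 1.01 under AAV-VEGF-C. Pear1 ranged from -0.98 to -0.36 and from -0.67 to -0.11, so neither gene stayed past 1.5-fold throughout. Ldha (chr7:46841475-46855627, plus strand, mm10), lactate dehydrogenase, stood at 203, 232, 100 and 116 CPM, and its log2 ratios were -1.02 and -1.004 and nearly the same in other nuclei, at -1.02 and -0.95. Ptms and Tmem256 had ratios of -0.94 and -0.87, and of -0.84 and -0.73. The immediate early gene Ier5 had ratios of -1.15 and -0.61, against -1.87 and -1.99 in other nuclei.

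**Figure D4:**
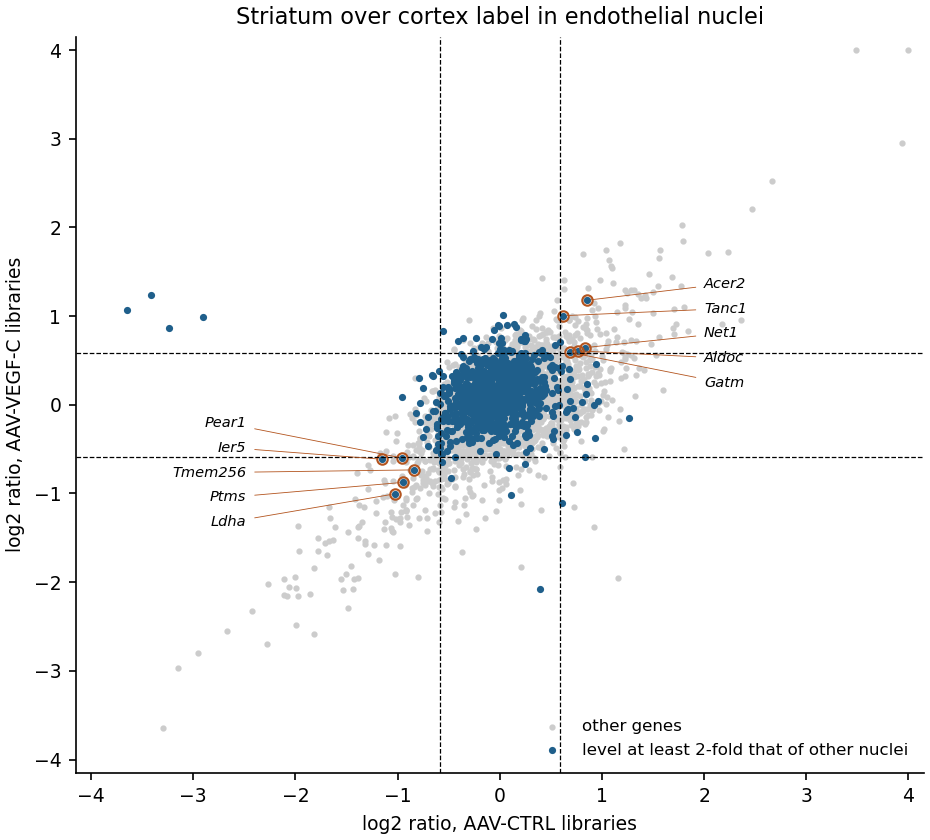
Log2 ratio of the striatum label over the cortex label in endothelial nuclei for genes with at least 200 UMIs, AAV-CTRL on the horizontal axis and AAV-VEGF-C on the vertical axis, 1 point per gene. Dashed lines mark 1.5-fold, points past 4 are drawn at that limit, and genes without a finite ratio, such as Scgb1c1, are not drawn. More genes lie past the fold on the same side of both axes, 112 higher and 149 lower, than in the AAV comparison.

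Between region labels, of 23 transporters, 0 were higher and 1 lower under AAV-CTRL, Mfsd2a (-0.82, -1.20 to -0.43), and 0 passed the fold under AAV-VEGF-C, where Mfsd2a was -0.10 (-0.48 to 0.29), with medians of -0.08 and 0.04. Of 13 junction genes, 1 was higher under AAV-CTRL, F11r, which encodes JAM-A, at 70.8, 98.3, 138 and 101 CPM (0.96, 0.45 to 1.51), and 0 passed the fold under AAV-VEGF-C. Kdr had region ratios of -0.40 (-0.69 to -0.09) and 0.22 (-0.09 to 0.54). Of 13 Wnt genes, the same 1 was higher under both, Tcf7l2, at 85.7, 66.1, 295 and 268 CPM (1.78 and 2.02), a gene that was 1.15 times the other nuclei and thus not particular to endothelial nuclei here. Edn1, the vasoconstrictor endothelin-1, stood at 138, 135, 99.1 and 76.4 CPM, and its log2 ratios were -0.48 (-0.91 to -0.04) and -0.83 (-1.32 to -0.34).

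Genes of the arterial and venous ends of the vessel tree were compared in the same way. Of 5 arterial genes compared, 2 were lower with the striatum label between AAV labels, Mgp (203, 232, 384 and 231 CPM, -0.73, -0.98 to -0.48) and Fbln5 (41.0, 45.1, 98.3 and 40.6 CPM, -1.28, -1.87 to -0.71). Both encode matrix proteins that fibroblasts and smooth muscle also make, and in both the library labelled striatum AAV-CTRL was the high one. With the cortex label 0 were higher and 1 was lower, Unc5b, and the medians were -0.03 and -0.38. Of 7 venous genes, 2 were higher (Vwf and Il1r1) and 1 lower (Vcam1) with the cortex label, and 0 were higher and 1 lower (Vcam1) with the striatum label, with medians of 0.29 and -0.17. Of 10 capillary genes 0 passed the fold in either AAV comparison, with medians of -0.17 and 0.07.

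Nuclei were then split by zone. A nucleus was called arterial with at least 2 UMIs of 10 arterial genes (among them Bmx, Gkn3, Efnb2 and Mgp) and 0 of 10 venous genes (among them Nr2f2, Slc38a5, Vwf and Vcam1), and venous by the reverse. This gave 17, 24, 36 and 22 arterial nuclei (5.43%, 6.54%, 5.57% and 5.29%) and 39, 45, 86 and 58 venous nuclei (12.5%, 12.3%, 13.3% and 13.9%). The groups are ranges of a sparse sum, not cell types, since 52 of the 99 arterial and 113 of the 228 venous nuclei sat at exactly 2 UMIs. Between AAV labels, the arterial share had log2 ratios of 0.27 (-0.69 to 1.26) and -0.08 (-0.91 to 0.73), and the venous share of -0.02 (-0.67 to 0.63) and 0.07 (-0.44 to 0.56). No difference in either share was detectable at this depth. Thinning all nuclei to 1000 UMIs left out 642, 709, 1537 and 425 shallower ones. The rule, applied to the thinned counts, then took 458, 504, 769 and 568 nuclei. Arterial shares were 5.68%, 4.37%, 4.68% and 5.81% and venous shares 8.30%, 12.3%, 10.3% and 9.15%. Between AAV labels, the arterial log2 ratios were then -0.38 (-1.27 to 0.50) and 0.31 (-0.42 to 1.03). The venous ones were 0.57 (-0.04 to 1.19) and -0.17 (-0.70 to 0.36).

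Genes that did not set these groups are described in them, pooled over the 4 libraries and with no test, since the groups were cut from the same nuclei. The level of Vegfc was higher in arterial than in venous nuclei, at 164 CPM (31 UMIs) against 20.9 CPM (10 UMIs), a log2 ratio of 2.97 (1.91 to 4.16). By library, arterial nuclei stood at 184, 128, 170 and 178 CPM and venous nuclei at 13.4, 0, 43.5 and 7.35 CPM, so every arterial value was above every venous value. Edn1 stood at 253 CPM in arterial and 66.8 in venous nuclei, and Unc5b, a netrin receptor, at 116 and 27.1. Sox17, a factor of arterial fate, stood at 174 and 71.0, and Eln, the elastin gene, at 317 and 23.0.

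On the venous side Il1r1 stood at 15.8 CPM in arterial and 317 CPM in venous nuclei (-4.32, -6.62 to -2.75), and Icam1 at 15.8 and 71.0. The capillary and venous genes Car4 (89.7 and 319 CPM) and Slc7a5 (259 and 568 CPM) and the Wnt targets Apcdd1 (42.2 and 159 CPM) and Nkd1 (26.4 and 142 CPM) were also lower in arterial nuclei. Of the VEGF-C receptors, Kdr stood at 206 and 263 CPM (-0.35, -0.91 to 0.18), and the Flt4 ratio was -0.54 (-2.13 to 0.81), so neither differed beyond counting error. Nrp2, a venous and lymphatic co-receptor, was lower in arterial nuclei, at 63.3 and 142 CPM (-1.16, -2.19 to -0.27). The transporters Slc2a1 (897 and 914 CPM) and Abcb1a (744 and 722 CPM) stood at nearly the same level in both. Vegfc thus leaned to the arterial and Nrp2 to the venous side, and Kdr to neither beyond counting error. Mgp and Fbln5, which smooth muscle also makes, were among the genes that set the arterial group, and the study detected Vegfc in smooth muscle cells. What part transcripts of smooth muscle have in the arterial Vegfc level was not tested. Arterial nuclei of the library labelled striatum AAV-CTRL also held Scgb1c1 at 4901 CPM and Bpifb3 at 3406 CPM, against 0 in the arterial nuclei of the other 3 libraries. Hbb-bs stood at 221, 1300, 786 and 12532 CPM in arterial nuclei. Venous nuclei held Ttr at 2354 CPM against 274 CPM in arterial nuclei, and Otx2os1 at 169 against 5.28 CPM. What part transcripts of other cells have in the venous levels was not tested.

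**Figure D5:**
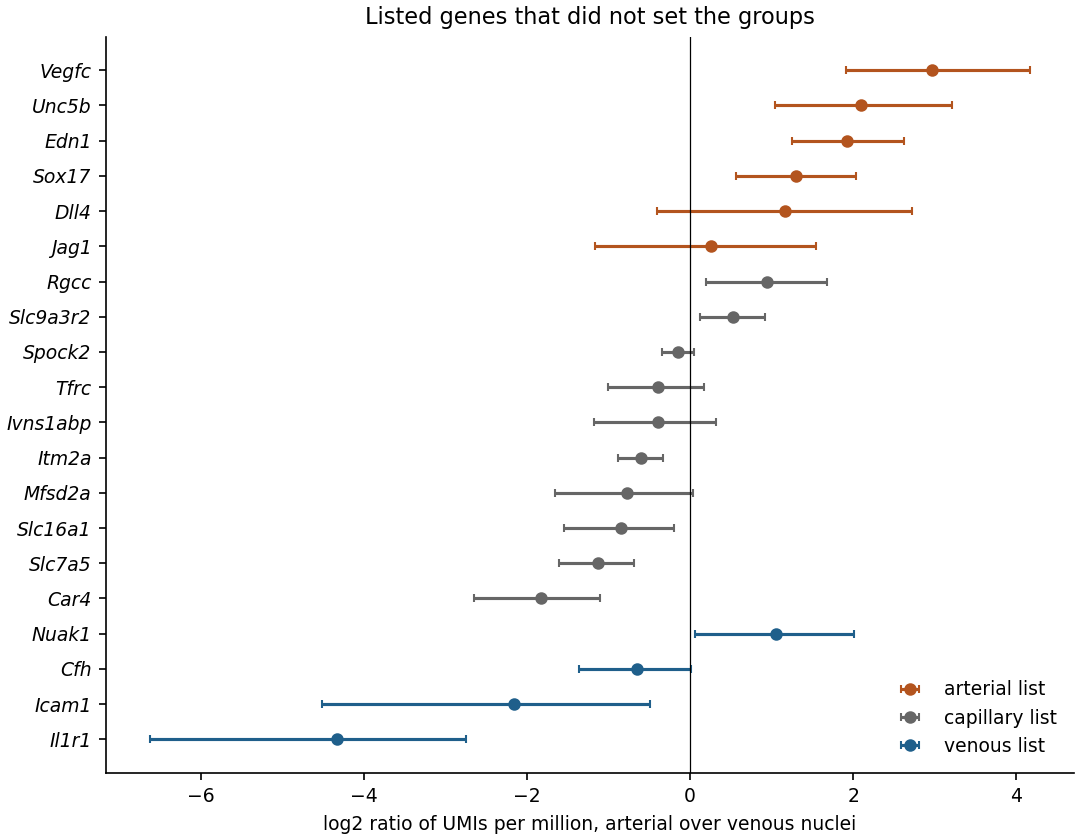
Log2 ratio of arterial over venous nuclei, pooled over the 4 libraries, for listed arterial, capillary and venous genes that did not set the groups, with exact 95% conditional binomial intervals. The vertical line marks equal level, and genes with 0 UMIs in one group are not drawn. Vegfc lies farthest to the arterial side at 2.97 and Il1r1 farthest to the venous side at -4.32, while Nuak1, from the venous list, lies on the arterial side at 1.05.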

How the data were processed

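The deposited files hold UMI counts per gene and nucleus, 1 matrix for each of the 4 libraries. Per the labels and the study's methods, the authors sequenced 10x Genomics 3′ libraries and made the counts with Cell Ranger on mouse genome build mm10. The matrix headers name version 5.0.1 and the submitters' processing notes 5.1.1. Whether intronic reads were counted is not given in the sources used here. The files hold as many nuclei as the study clustered, so its removal of shallow and low-quality nuclei took none of these. The authors' normalization and clusters were not used here.

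UMIs of the chosen nuclei were summed per library and scaled to a sum of 1000000 over 31053 genes (CPM). No pseudocount was used, since ratios were taken from counts. Levels carry exact Poisson intervals, shares Clopper-Pearson intervals and ratios exact conditional binomial intervals (SciPy 1.17.1). Doublets were called with Scrublet (scanpy 1.11.5, expected rate 8%). They were kept in the set, and an alternative left them out. The ratio and interval code was tested on simulated data. Endothelial UMIs per library, 536609 to 1180135, set the precision of each value.

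Named genes were the markers, genes of the lists, the 20 with the largest ratio to other nuclei, and, among genes past 1.5-fold the same way in both pairs, the first 8 in each direction at least 2-fold above other nuclei and the first 4 below that. The nuclei's rule, the lists and the comparisons were chosen with earlier results of these data known. With 1 library per group there was no test, and 11 alternatives were tried.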

Additional observations from a re-analysis of the deposited data

Results flagged for a closer look

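Haemoglobin genes went opposite ways under the 2 region labels, which is what marked them out. Hbb-bs held 2950, 872, 609 and 2770 UMIs in endothelial nuclei, so it was lower in the AAV-VEGF-C library with the cortex label (log2 ratio -1.97) and higher with the striatum label (2.68). Hbb-bt had ratios of -1.85 and 2.87, Hba-a1 of -1.71 and 2.39, and Hba-a2 of -1.75 and 2.13. These genes mark red blood cells, and the nearly identical pairs Hba-a1 with Hba-a2 and Hbb-bs with Hbb-bt can share reads, so the split within a pair is uncertain. The whole list took 0.896%, 0.242%, 0.0896% and 0.530% of endothelial UMIs, against 0.112%, 0.0574%, 0.0512% and 0.0911% of UMIs in the other nuclei. The difference between the region labels was not tested, since each group is 1 library.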

How the results depend on the processing

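Of the values for single genes, 1996 stayed within their counting interval under an alternative, 192 moved and 3 reversed, of the shares 52 stayed and 4 moved, and of the list values 614 stayed and 182 moved. The reversals were Otx2os1 between region labels under AAV-CTRL (-0.11 with a marker minimum of 4), Sgcd between AAV labels with the cortex label (0.014 after thinning) and Mgat4c in the same comparison (0.33 without the neuron maximum). For genes higher or lower in both AAV comparisons (13 and 16), a marker minimum of 4 gave 25 lower, an other-cell maximum of 0 gave 7 and 10, leaving out called doublets gave 8 higher, thinning to 1000 UMIs gave 8 and 8, a minimum of 100 UMIs per gene gave 26 and 50, a minimum of 500 gave 4 and 2, and no neuron maximum gave 5 and 7. For the region labels (112 and 149), a maximum of 0 gave 14 and 48, thinning gave 73 higher, a minimum of 100 UMIs gave 254 and 263, one of 500 gave 35 and 56, and no neuron maximum gave 284 and 350. Fewer or more genes reach the UMI minimum under several of these, from 856 with a maximum of 0 to 7618 without the neuron maximum. The cause of the remaining differences was not tested. Without the neuron maximum, an alternative added after the data were seen, only Ccdc85b and Rpl35 of the 13 higher genes and 0 of the 16 lower genes remained. The share of endothelial nuclei between region labels under AAV-CTRL was 0.32 after thinning and 0.19 without the neuron maximum, and under AAV-VEGF-C 0.019 without it. The arterial share between AAV labels with the striatum label was -0.99 with a maximum of 0. Over the 9 alternatives that bear on a single gene, Vcam1 ranged from -1.74 to -0.37 and from -2.74 to -0.44, and Rpl38 from 0.42 to 0.71 and from 0.64 to 1.06. Leaving out the 88 nuclei high in Ttr or Scgb1c1 or low in the 25 endothelial genes was also chosen after the data were seen. No paired analysis was possible because each group has 1 library. Leaving out a library was not run, since it removes the 2 pairs that hold it and leaves the other pairs' values as given. Depth limits sparse genes such as Flt4 and Vegfc, each under 60 UMIs in every library.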
